A study of Drosophila melanogaster with 16 samples.

Results

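Wild-type Drosophila melanogaster embryos given a heat pulse were compared with untreated wild-type embryos. All arrays of the 2 wild-type groups were taken, 3 heat-shocked and 5 untreated, which is 8 of the 16 single-colour expression arrays of the study, with all 14038 probe sets other than the controls. Both groups were whole embryos of the wild-type strain Oregon-R, kept at 25 °C, at stages 10 to 17. The heat-shocked embryos had been collected for 12 h, aged for 4 h, held at 37 °C for 25 min and returned to 25 °C for 25 min before RNA was isolated. For the untreated embryos the labels give the stages and no collection or ageing time, so the effect of the pulse and a difference in collection, age or handling cannot be told apart. The other 8 arrays, from heat-shocked embryos of the transgenic lines hsp-otd and hsp-Otx2 (4 each), were used to estimate spread and to give values side by side. In these lines a heat shock promoter drives a homeobox gene, so the same pulse also switches on the transgene. Nothing in the labels says whether replicate arrays came from separate egg collections, and the p-values therefore cover the spread between arrays and nothing more. Because RNA came from whole embryos, fewer cells of a type and less RNA per cell cannot be told apart.

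When proteins unfold in the heat, heat shock factor binds the promoters of heat shock genes and their transcripts appear within minutes. The chaperones they encode work with co-chaperones, which hand over substrates or exchange nucleotides, and with ubiquitin and autophagy factors that remove what cannot be refolded. Heat is also known to block splicing, to pause the cell cycle and to repress transcription and translation of many other genes in fly cells. Embryos of the stages studied are also laying down cuticle, completing neurogenesis and forming larval organs.

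Values are linear intensities, quantile normalized over the 16 arrays and raised to a floor of 20, and a level is a geometric mean over the arrays of a group. Log2 fold changes are heat-shocked over untreated, and a gene passed when limma's p, adjusted by Benjamini-Hochberg over all 12301 probe sets tested, was below 0.05. Values in brackets after a gene are levels, untreated to heat-shocked, and log2 fold changes ± standard error. Rose, fell, higher and lower are used of genes that passed. Of 10123 genes tested, 997 were higher (9.85%) and 1344 lower (13.3%), with a median log2 fold change of -0.0041 over all genes. Within-group spread was larger in the compared groups (a median SD of 0.318 on the log2 scale in each) than in hsp-otd (0.177) and hsp-Otx2 (0.193), and the fit pooled all 4. The counts were therefore also taken over genes that passed in a fit of the 8 compared arrays alone, in the same direction: 475 higher (4.69%) and 721 lower (7.12%). These are called both fits below. Mean deposited intensity was 460.2 to 650.2 in the heat-shocked arrays and 598.7 to 999.1 in the untreated ones. Over probe sets 1269 were higher (10.3%) and 1501 lower (12.2%), so 45.8% of those called were higher. That share was 35.1% with each array scaled by its median (877 higher, 1622 lower) and 14.7% without normalization (189 higher, 1100 lower), where the median of all genes was -0.41. All changes below are therefore relative to the normalized distribution. Counts of 4 or fewer genes in a list often moved by more than 1.5 times when 1 array was left out. An array below the floor enters a level at 20, so a fold change against it is set by the floor.

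Markers of the tissues an embryo holds were measured first. The muscle gene Mlc2 had levels of 17765 and 15747 in untreated and heat-shocked embryos, the neuronal gene elav 1009 and 757 and the haemocyte gene Pxn 1303 and 1273, and none of these passed. A second muscle gene, Mhc, rose from 46.6 to 208 (2.16 ± 0.61, adjusted p = 0.0168). Its signal was dim and above the floor in only 3 of the 5 untreated arrays, so the fold change is partly set by the floor. The adult yolk protein gene Yp3, the haemocyte gene Hml and the oocyte gene osk lay below the floor in all 8 arrays. The other early marker, bcd, was above the floor in all 8, with levels of 3573 and 5528, and did not pass (0.63 ± 0.23, adjusted p = 0.0575). Its probe set is marked as sharing probes, so the signal may come from other transcripts. Of the other adult markers, none of 5 passed, Yp1 having levels of 139.6 and 421 and the eye opsin ninaE 214 and 263. Among stage lists, 4 of 32 neuroblast genes were higher and 4 lower, 2 of 27 genes of the Notch list were higher and 14 lower, and 48 of 121 cuticle protein genes were lower. Over all genes 9.85% were higher and 13.3% lower. Of the cuticle genes 6 were higher, but 2 without heat-shocked replicate 2 and 3 without untreated replicate 4. The part of embryo age in these differences was not tested.

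Many partners of the heat shock proteins rose after the pulse, and others did not. In the list of co-chaperones, organelle and constitutive chaperones and heat shock factor, 14 of 24 tested genes rose, all 14 in both fits, and 1 fell, with a median log2 fold change of 0.87. Without normalization 6 rose, none fell and the median was 0.39. Counted among the 14 are ref(2)P (2.34), an autophagy factor, and l(2)efl (1.00), a small heat shock protein gene. For comparison, the strongly induced chaperone gene Hsp68 was below the floor in all 5 untreated arrays and at 16386, 17299 and 16471 in the heat-shocked ones, at least 836-fold higher. DnaJ-1 encodes the Hsp40 that delivers substrates to Hsp70. Its normalized intensity was 1270.4, 1156.5, 826, 1441 and 1459 in the untreated arrays and 16337, 16934 and 14742 in the heat-shocked arrays. The groups were far apart, with a log2 fold change of 3.73 ± 0.15 and an adjusted p of 2.10e-11.

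The gene stv encodes the BAG-family nucleotide exchange factor starvin. It measured 677, 620.1, 815, 458 and 572 untreated and 6144, 5838.5 and 5323 after the pulse. Every heat-shocked array lay above every untreated one (3.22 ± 0.14, adjusted p = 4.63e-11). A further exchange factor, Hsp110, was at 1039.8, 1035, 1002, 1133 and 1199 and then 4743, 4361.5 and 3534. It too showed no overlap (1.95 ± 0.10, adjusted p = 3.39e-10). For ref(2)P, the fly p62 protein that links ubiquitinated aggregates to autophagy, untreated arrays read 1079, 1622.5, 1108.5, 1312 and 1378 and heat-shocked arrays 7572, 6713 and 5440.5. That is a log2 fold change of 2.34 ± 0.13.

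Hsp83, the fly Hsp90, was already abundant and rose from 7662 to 22193 (1.53 ± 0.11). Hsf, the factor itself, rose from 1296 to 2061 (0.67 ± 0.10, adjusted p = 1.07e-04), but not without normalization (0.16, adjusted p = 0.783). Hsc70-4, the main constitutive Hsp70, had levels of 16906 untreated and 18830.4 heat-shocked and did not pass (0.16 ± 0.07, adjusted p = 0.11). Outside the list, the Hsp90 co-chaperones Sgt1 and mora rose, Sgt1 from 203 to 1418 (2.80 ± 0.25) and mora from 213 to 1169.9 (2.46 ± 0.09), and pall, an F-box gene, from 281 to 2108 (2.91 ± 0.24). The same fit gave hsp-otd and hsp-Otx2 over untreated log2 values of 3.98 and 3.89 for DnaJ-1, 3.27 and 2.34 for stv, 2.43 and 1.86 for Hsp110 and 3.70 and 2.91 for mora. These comparisons share the untreated arrays.

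The cytosolic chaperonin CCT, a ring that folds actin and tubulin, and prefoldin, which hands it new chains, gave different counts. Both were in a single list of 14 tested genes, divided in the same step as the replication and Notch subgroups described below. All 8 CCT subunit genes tested rose, 6 of them in both fits, with log2 fold changes of 0.41 to 1.14, while none of the 6 prefoldin genes rose and 2 fell (1 without untreated replicate 2 or 4 or without heat-shocked replicate 2). CCT2 read 1613, 1744.5, 1442, 1839 and 1942 untreated and 3480.1, 3437.5 and 4441 after the pulse (1.14 ± 0.12, adjusted p = 3.56e-06). CCT3 (0.83 ± 0.15) and CCT7 (0.67 ± 0.11) changed less, and Pfdn1 fell from 443 to 235 (-0.92 ± 0.22). None of the 8 CCT genes passed without normalization, where their median was 0.15 against -0.41 for all genes. In hsp-otd and hsp-Otx2 the CCT medians over untreated were 0.92 and 0.09.

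Genes of the endoplasmic reticulum, where a separate stress response operates, mostly did not pass. Of 22 tested, 5 rose, 4 in both fits, and none fell. The kinase gene PEK slows translation when the organelle is stressed. Its untreated arrays read 156, 68.0, 229.7 and 208 with replicate 1 below the floor, and its heat-shocked arrays 1140.3, 1021 and 792. No heat-shocked array was within the untreated range (3.28 ± 0.55, adjusted p = 3.51e-04). Hsc70-3, the lumenal Hsp70 known as BiP, rose from 4779 to 12691.5 (1.41 ± 0.11), and BI-1, an inhibitor of cell death in that membrane, from 2551 to 3947 (0.63 ± 0.09). The disulphide isomerase gene Pdi had levels of 8905 untreated and 9213 heat-shocked and did not pass (0.05 ± 0.09, adjusted p = 0.752). Hsc70-3 over untreated was 0.06 and 1.03 in hsp-otd and hsp-Otx2.

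Of 28 genes of the JNK pathway and other stress transcription factors, 8 were higher and 4 lower, and 3 of the higher ones passed in both fits. The lower ones were 2 without untreated replicate 4 or heat-shocked replicate 2 and 1 without untreated replicate 5 or heat-shocked replicate 3, and without normalization none of the list was higher and 1 lower. The 3 higher in both fits were cbt, a zinc finger gene (745 to 1362, 0.87 ± 0.11), Jra, the fly Jun (500.1 to 869, 0.80 ± 0.18), and maf-S, the small Maf partner of the oxidative stress factor (1909 to 2620.4, 0.46 ± 0.07, but -0.05 without normalization). The Fos gene kay rose from 1232 to 1974 (0.68 ± 0.17, adjusted p = 0.00801), and missed the threshold without heat-shocked replicate 3 (adjusted p = 0.051) and in the fit of the 8 arrays (adjusted p = 0.0807). A second kay probe set rose by more (1.10 ± 0.17, adjusted p = 1.52e-04). The pathway's phosphatase gene puc, often used as its readout, had levels of 501 untreated and 660.3 heat-shocked and did not pass (adjusted p = 0.123). Among 21 redox and metallothionein genes 6 rose and 2 fell. Gclm, the modifier subunit that sets glutathione synthesis, read 1035, 1087, 1226, 1129 and 1023 and then 2601, 2264 and 2461 (1.15 ± 0.08, adjusted p = 1.69e-08). The peroxiredoxin genes Prx6b (0.98 ± 0.11) and Prx6c (0.73 ± 0.11) also rose. Of 11 apoptosis genes 1 was higher (9.09%) and 2 were lower (18.2%), none in both fits. In the proteasome list 16 of 41 fell and 1 rose, 5 and 1 of them in both fits.

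**Figure D1:**
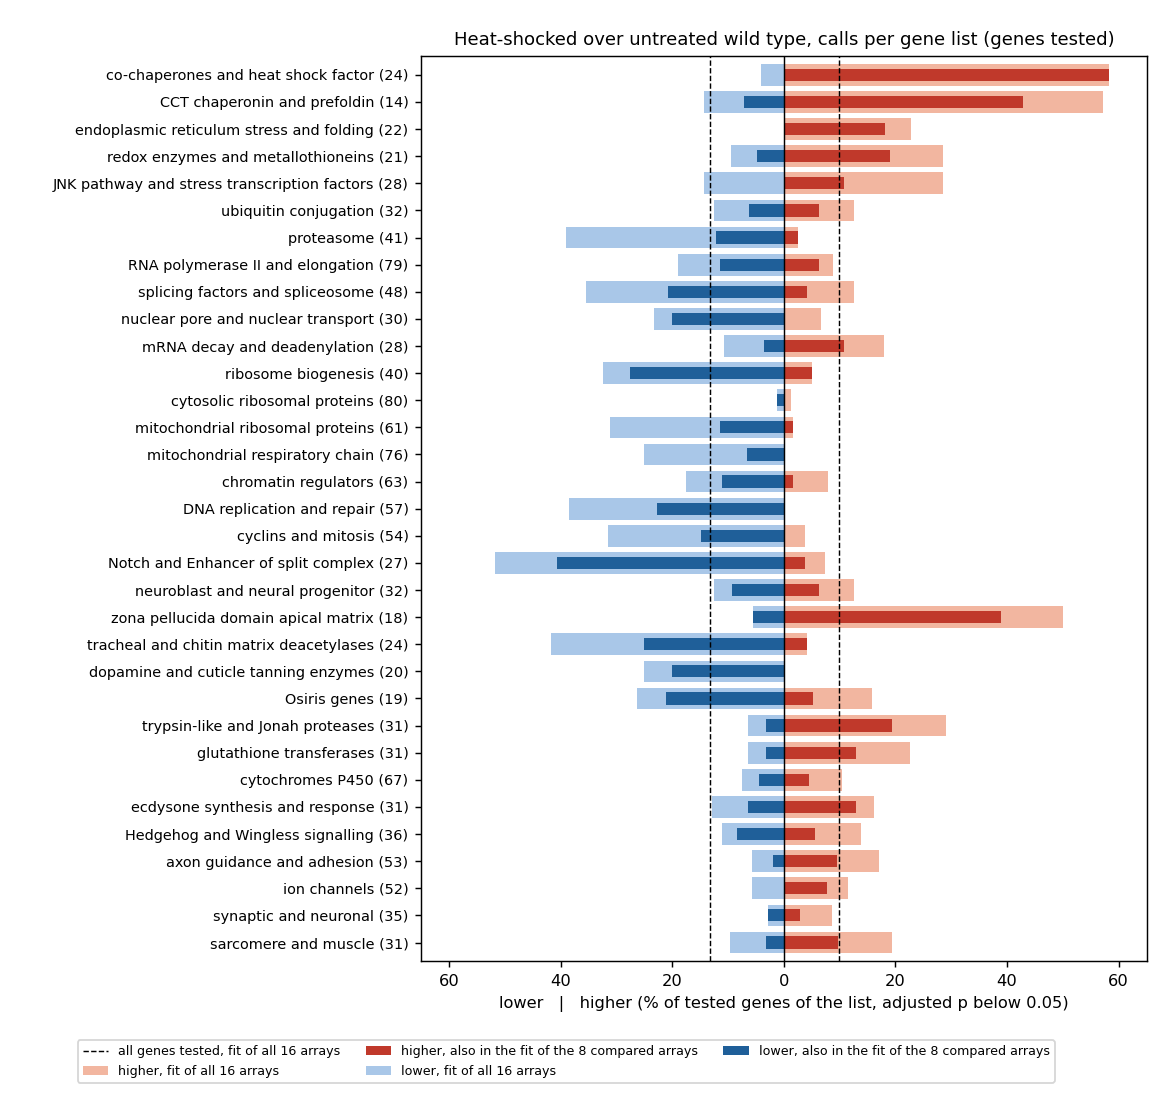
Share of tested genes called higher (to the right) or lower (to the left) in heat-shocked over untreated wild type, for 33 gene lists, with the number of genes tested in brackets. Pale bars are the fit of all 16 arrays, dark bars the genes that also passed in the fit of the 8 compared arrays, and dashed lines the shares over all genes, 9.85% and 13.3%. The co-chaperone list has 14 of 24 genes higher and the Notch list 14 of 27 lower.

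Among named genes outside the heat shock and cuticle lists, the 12 with the highest fold change hold proteases, an immune enzyme, a transcription factor subunit and membrane proteins. The plot of the 12 genes at each end shows every array. AdamTS-A, a secreted metalloprotease that acts on extracellular matrix, was below the floor in all 5 untreated arrays and read 589, 701 and 823 after the pulse. That is at least 34.9-fold higher (adjusted p = 4.63e-11). The gene blanks, which encodes a protein that binds double-stranded RNA and is known for its role in the male germ line, was also below the floor in every untreated array and read 465, 725 and 413 after the pulse, at least 25.9-fold higher. NANS, an enzyme of sialic acid synthesis, went from 44.4 to 711 (4.00 ± 0.46), with 2 untreated arrays below the floor.

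Taf7, a subunit of the general transcription factor TFIID, read 29.5, 147, 118, 231 and 218 untreated and 1814, 1648 and 1629 after the pulse. Its lowest heat-shocked array was far above its highest untreated array (3.81 ± 0.45, adjusted p = 1.01e-05). The mitochondrial membrane gene Tspo was below the floor in every untreated array and 208, 304 and 266 after the pulse, at least 12.8-fold higher. The PDZ-domain gene bbg rose from 24.7 to 319 (3.69 ± 0.57) with 4 untreated arrays below the floor, although a second probe set of bbg gave 0.90 ± 0.80 and did not pass. Mst84Da, of a gene family known from the male germ line, rose from 77.8 to 1202 (3.95 ± 0.75) with 2 untreated arrays below the floor, and its second probe set did not pass (adjusted p = 0.144).

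Genes of digestion and immunity were also among the 12. The serine protease genes Jon99Ciii and Jon65Aiv, expressed in the larval gut, were below the floor in every untreated array. After the pulse Jon99Ciii read 1335, 1140.3 and 203, at least 33.8-fold higher, and Jon65Aiv 319.9, 239.9 and 239, at least 13.2-fold. The related gene Jon99Cii rose from 157 to 1955.5 (3.64 ± 0.25); the Jonah genes resemble each other in sequence, so probes may share signal. Of 31 genes of the trypsin-like and Jonah list 9 rose, 6 in both fits, and 2 fell, among them Try29F (1179.7 to 367, -1.68 ± 0.18). PGRP-SC1b, an enzyme that degrades bacterial peptidoglycan, read 223 in replicate 2 and below the floor in the other 4 of the untreated arrays, and 151, 802 and 693 after the pulse (3.76 ± 0.80, adjusted p = 0.00275), so the groups overlapped through untreated replicate 2 and heat-shocked replicate 1.

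The probe set W_at rose from 815 to 11910.2 (3.87 ± 0.12), and its identifier matches white, hid and modSP alike, so its gene is uncertain. It read 872, 904, 799.9, 760.3 and 748 untreated and 11288, 13808 and 10839 after the pulse. Over the same untreated arrays it was 0.13 and -1.37 in hsp-otd and hsp-Otx2. For Taf7 the same comparisons gave 4.32 and 4.07, for AdamTS-A 4.84 and 4.39, for blanks 5.22 and 2.74 and for Tspo 0.84 and 3.80.

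**Figure D2:**
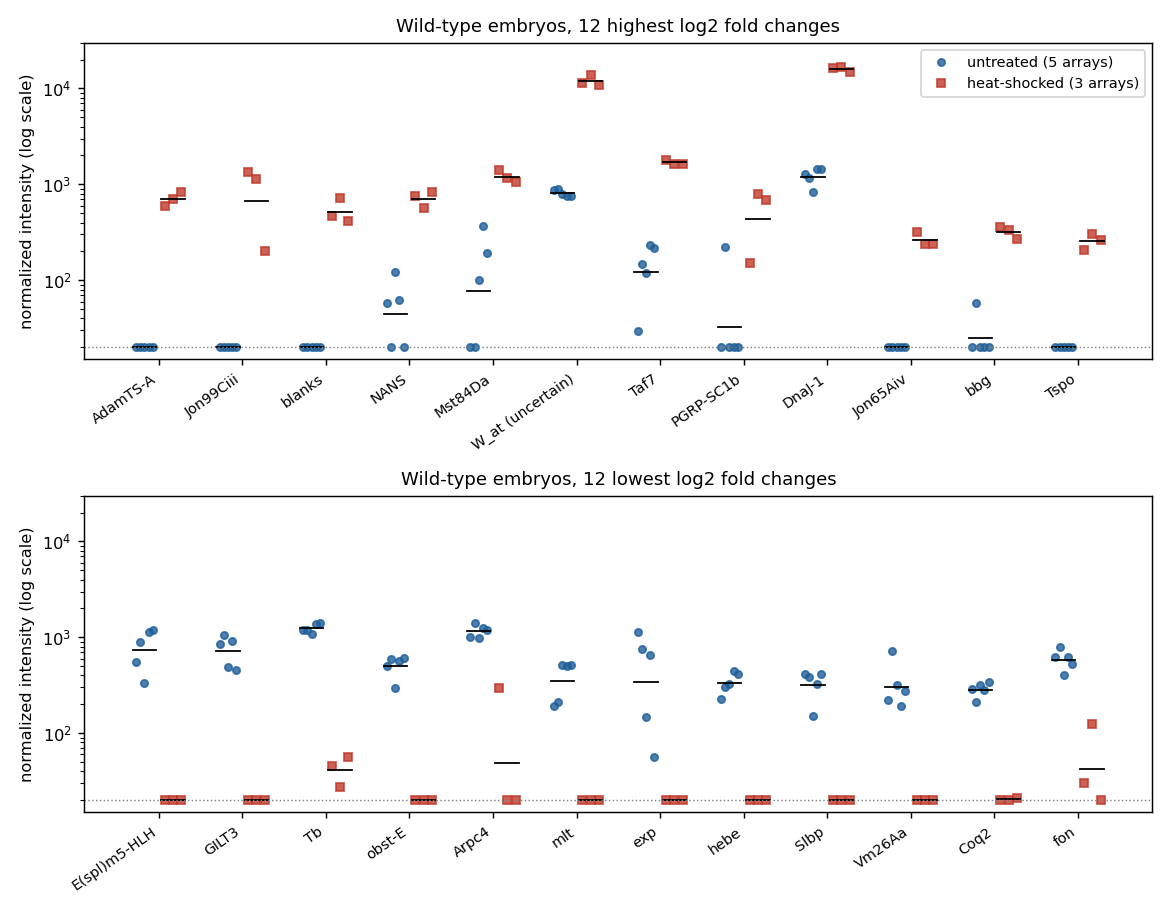
Normalized intensity (log axis) of the 12 most raised and 12 most lowered named genes outside the heat shock and cuticle lists, in each untreated (circles) and heat-shocked (squares) wild-type array. Black bars are geometric means, the dotted line is the floor of 20, to which lower values were raised. Of these 24 genes, only PGRP-SC1b shows overlapping groups.

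At the lower end, 8 of the 12 genes were below the floor in every heat-shocked array. E(spl)m5-HLH, a repressor that Notch switches on, read 557, 902, 334, 1131 and 1189.7 untreated and was below the floor in each heat-shocked array, at least 37.1-fold lower (adjusted p = 6.60e-08). GILT3, of a family of thiol reductases, was at 861.5, 1066, 487, 917 and 461 untreated and below the floor afterwards, at least 35.8-fold lower. Slbp encodes the protein that binds the stem-loop of histone messenger RNA and is needed to make it. It read 412, 384, 151, 322 and 410.5 untreated and was below the floor in every heat-shocked array, at least 15.8-fold lower.

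Tb, a cuticle gene of the Tweedle family that the cuticle list did not hold, fell from 1246 to 41.6 (-4.91 ± 0.26). The chitin-binding gene obst-E was at least 25.0-fold lower, and exp, needed for tracheal tubes of normal width, at least 17.1-fold, although exp did not pass with 1 variance factor per group (adjusted p = 0.0735). Vm26Aa, an eggshell gene of the mother's ovary, was at least 15.3-fold lower, the tubulin cofactor gene mlt at least 17.6-fold and hebe at least 16.7-fold. The clotting gene fon fell from 579 to 42.3 (-3.78 ± 0.46), with 1 of 3 heat-shocked arrays below the floor. Coq2, of ubiquinone synthesis, fell from a level of 284 to 21.1 in replicate 3 and below the floor in the other 2.

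Arpc4 encodes a subunit of the Arp2/3 complex, which nucleates branched actin. It read 1011, 1406, 977, 1250.2 and 1178 untreated, 294.5 in heat-shocked replicate 1 and below the floor in the other 2, a log2 fold change of -4.56 ± 0.61 with an adjusted p of 4.27e-05. In hsp-otd and hsp-Otx2 Arpc4 was -0.77 and -0.96 over untreated, and Slbp was 0.49 and -3.69, GILT3 -0.32 and -2.80, mlt -0.90 and -1.20 and obst-E -3.64 and -4.05. Differences between the heat-shocked groups were not tested.

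Lists for the making and processing of RNA mostly held more lowered than raised genes, as did all genes tested (9.85% higher and 13.3% lower). Of 48 splicing genes 17 fell (35.4%) and 6 rose (12.5%), 10 and 2 of them in both fits, with a median of -0.30. Prp31, a protein of the spliceosome's tri-snRNP, read 193, 239, 118, 303 and 312 untreated. After the pulse it was 46.0 in replicate 2 and below the floor in the other 2, all below the untreated range (-3.06 ± 0.39, adjusted p = 2.71e-05). The assembly factor gene crn fell from 736 to 218 (-1.76 ± 0.19) and Sf3b5, of the U2 particle, from 1996 to 989 (-1.01 ± 0.08).

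Of 40 genes of the ribosome biogenesis list 13 fell and 2 rose, 11 and 2 in both fits (median -0.21). Counted in it are Rrp1, a DNA repair gene that fell in both fits (-0.81), and bor and kra, which act elsewhere and did not pass. Ns3, a GTPase of the nucleostemin family, read 1044, 1104, 984.5, 779.8 and 978 and then 451, 468 and 525 (-1.02 ± 0.12, adjusted p = 1.46e-05). The RNA polymerase I subunit gene Polr1H fell from 589 to 248 (-1.25 ± 0.23) and the exosome gene Ski6 from 1574 to 802 (-0.97 ± 0.19). The 80 genes tested for proteins of the cytosolic ribosome itself held 1 higher and 1 lower, with a median of 0.10. Against this, 19 of 61 mitochondrial ribosomal protein genes fell and 1 rose, which became 11 lower without heat-shocked replicate 2, and 7 fell in both fits. One of them, mRpL4, read 115, 225, 104.1, 328 and 365 untreated and lay below the floor after the pulse, at least 10.0-fold lower.

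Nucleoporins line the pore that exports messenger RNA. Of 30 genes of the nuclear pore and transport list 7 fell, 6 in both fits, and 2 rose. Nup43 read 227, 318, 351, 227 and 378 untreated, then 26.9 in replicate 1 and below the floor in the other 2 (-3.73 ± 0.68, adjusted p = 7.58e-04). Nup107, of the same outer ring, fell from 518 to 81.2 (-2.67 ± 0.34), Nup205 from 863 to 392.2 (-1.14 ± 0.19) and Nup154 from 1084 to 667 (-0.70 ± 0.13). In hsp-otd and hsp-Otx2 Nup43 was 0.30 and -2.26 over untreated and Nup205 0.13 and -0.26.

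The list of RNA polymerase II, its general factors and elongation genes was split, with 7 of 79 higher and 15 lower (5 and 9 in both fits). Besides Taf7, the raised genes included TfIIEalpha, of the general factor TFIIE (242 to 650.1, 1.42 ± 0.27). Polr2H, a subunit shared by the 3 nuclear RNA polymerases, fell from 2003 to 762 (-1.40 ± 0.10). The TFIIH helicase gene hay fell from 251 to 34.1 (-2.88 ± 0.74, adjusted p = 0.00997), with 2 of 3 heat-shocked arrays below the floor. Its adjusted p was 0.0522 without heat-shocked replicate 2 and 0.0771 with 1 variance factor per group. Of 28 genes of mRNA decay and deadenylation 5 were higher (17.9%) and 3 lower (10.7%), with 1 lower without heat-shocked replicate 2. The repressor gene pum, which recruits the deadenylase, rose from 51.3 to 212 (2.05 ± 0.39), although a second, dim probe set gave -0.29 ± 0.47 and did not pass. Also changed were tral, of processing bodies, which rose from 399 to 575 (0.52 ± 0.09), and the deadenylase subunit gene Not3, which fell from 1376 to 921 (-0.58 ± 0.09).

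Chromatin regulators gave 5 higher and 11 lower of 63, and 1 and 7 in both fits. The 1 higher in both fits was mof, the acetyltransferase of the dosage compensation complex (164 to 404, 1.30 ± 0.19). Bap55, an actin-related protein of remodelling complexes, read 1014, 994, 1026, 1058.5 and 998 untreated and 417.5, 603 and 713 after the pulse. The groups did not overlap (-0.85 ± 0.14, adjusted p = 2.90e-04), and the histone-fold gene Chrac-16 fell from 1266 to 756 (-0.75 ± 0.11).

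Genes of DNA replication and of division passed mostly in the downward direction. Of 57 genes of DNA replication and repair 22 fell, 13 in both fits, and none rose, and the median was -0.48. Mcm2, a subunit of the replicative helicase, read 639, 687, 574, 658 and 663 untreated and 226, 83.2 and 58.1 after the pulse (-2.64 ± 0.32, adjusted p = 1.26e-05). The 3 heat-shocked arrays spread widely, and all lay below the untreated range. PCNA, the sliding clamp, fell from 1232 to 522 (-1.24 ± 0.12). All 3 genes of the single-strand binding complex RPA fell, as did 3 of the 4 clamp loader genes tested and 3 of the 6 helicase subunits; these subgroups were set after the values were seen.

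Among repair genes, rad50, which holds broken ends, fell from a level of 145 to 23.4 in replicate 2 and below the floor in the other 2, and the photolyase gene phr from a level of 138 to 46.0 in replicate 1 and below the floor in the other 2. In the list of cyclins and mitosis 17 of 54 fell and 2 rose, 8 and none in both fits. Zw10, of the spindle checkpoint, read 370.4, 275, 184.5, 332 and 337 untreated, then 29.9 and 40.4 with replicate 3 below the floor (-3.33 ± 0.34, adjusted p = 1.98e-06). The kinase gene Cdk2, of the entry into S phase, fell from 1075 to 444 (-1.28 ± 0.12) and polo, of mitosis, from 1742 to 657 (-1.41 ± 0.19). The kinetochore gene Nuf2 was at 110.4, 76.5, 30.5, 179 and 152 untreated and below the floor after the pulse, at least 4.66-fold lower.

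The transgenic groups gave other values for these genes. Mcm2 over untreated was -0.13 and -2.05 in hsp-otd and hsp-Otx2, Cdk2 -0.07 and -1.48, polo -0.01 and 1.46 and Nuf2 1.73 and 2.28. The median of the replication and repair list was 0.36 and -0.53 and that of cyclins and mitosis 0.38 and 0.21. These comparisons share the untreated arrays as well.

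Notch signalling restricts which cells become neurons by switching on the E(spl) repressors and Bearded-family genes. Of the 27 genes of the Notch list 14 fell, 11 in both fits, and 2 rose, with a median of -0.60. Most of the lowered genes were targets of the pathway. All 6 E(spl) repressor genes tested fell, 4 in both fits, and 6 of 7 Bearded-family genes fell, all 6 in both fits, while 2 of the other 14 genes of the pathway rose and 2 fell. This division was made after the values were seen. Ocho, counted among the 6, read 1744.5, 2004, 1758, 1958 and 1952 untreated and 446, 359 and 432 after the pulse (-2.19 ± 0.12, adjusted p = 1.23e-09). This probe set is marked as sharing probes, so other transcripts may add to its signal. The unmarked probe set of Ocho had levels of 667 and 536 and did not pass (-0.32 ± 0.19, adjusted p = 0.246). BobA read 2514, 2906, 2268, 3019.7 and 3104 and then 866, 754 and 569 (-1.93 ± 0.16). E(spl)mdelta-HLH fell from 244 to 32.4 (-2.91 ± 0.54), with 1 of 3 heat-shocked arrays below the floor. The receptor gene N had levels of 2293 untreated and 2338 heat-shocked and did not pass (0.03 ± 0.09, adjusted p = 0.861).

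In hsp-otd and hsp-Otx2 the medians over untreated were -0.17 and -2.71 for the E(spl) repressors and -0.32 and -2.72 for the Bearded family. Neural genes outside the pathway changed in both directions. Of the 32 neuroblast genes, mira, an adaptor for asymmetric division, fell from 1589.9 to 510.3 (-1.64 ± 0.25) and the proneural gene l(1)sc from 812 to 338 (-1.26 ± 0.17), while nub, a POU-domain gene, rose from 1152 to 2346 (1.03 ± 0.17); 2 dimmer probe sets of nub did not pass. The glial switch gene gcm fell from 808 to 306 (-1.40 ± 0.32).

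**Figure D3:**
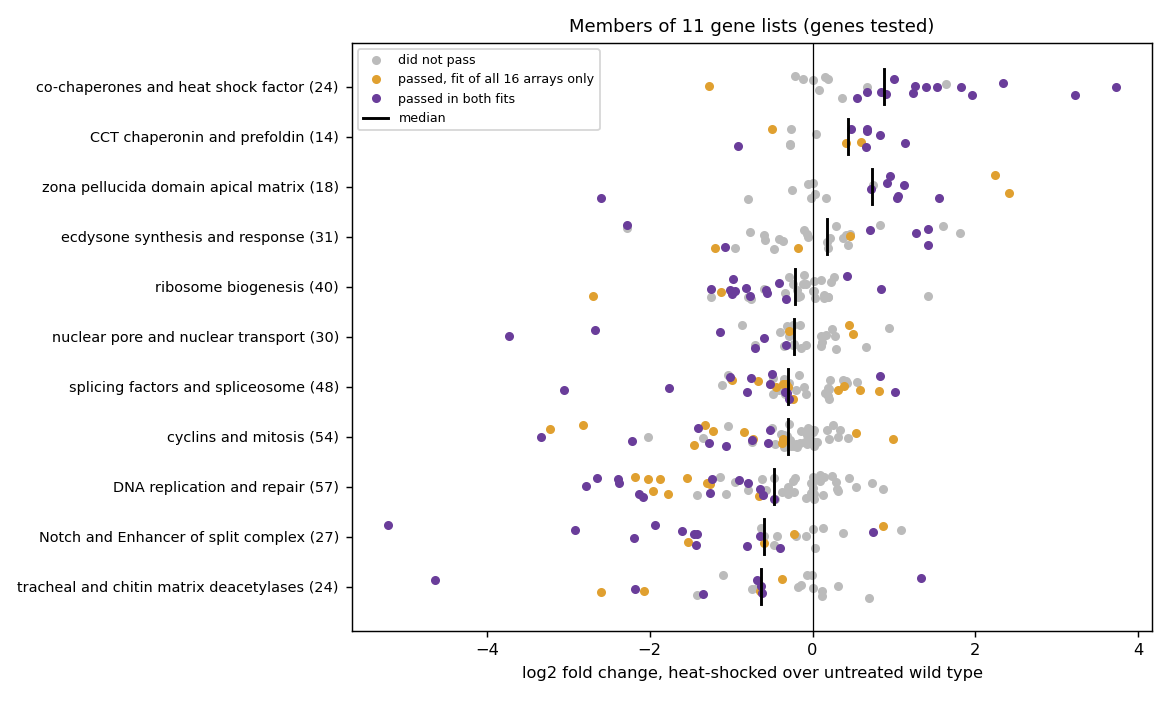
Log2 fold change, heat-shocked over untreated wild type, of every tested member of 11 gene lists, with the number tested in brackets. Colour marks whether the gene passed in both fits, in the fit of all 16 arrays only or in neither, and black lines are list medians. The co-chaperone points spread to the right, up to DnaJ-1 at 3.73, and the Notch points to the left, down to E(spl)m5-HLH at -5.21.

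Cells of the epidermis build an apical matrix of zona pellucida proteins before they secrete chitin and cuticle. More zona pellucida genes rose than fell, and more chitin genes fell than rose. The zona pellucida list of 18 tested genes also held f, trn, zpg and fw, which do not encode zona pellucida proteins. In it 9 genes rose, 7 in both fits, and 1 fell, with f (0.96) among the 7 and trn, zpg and fw not passing. The median was 0.73 against -0.0041 over all genes. Without normalization 1 rose and 1 fell, and the median was 0.27 against -0.41 over all genes. The gene mey read 410.4, 349, 280.2, 471 and 586 untreated and 1226, 1289 and 1084 after the pulse, without overlap (1.56 ± 0.18, adjusted p = 6.84e-06). The gene m (miniature), which shapes denticles and wing cells, read 429.8, 426, 423, 352 and 226 and then 805, 785 and 771 (1.12 ± 0.20, adjusted p = 6.11e-04). Another, nyo, rose from 747 to 1545 (1.05 ± 0.17), and zye fell from 266 to 43.8 (-2.60 ± 0.60), with 1 of 3 heat-shocked arrays below the floor. The call of zye was lost with 1 variance factor per group (adjusted p = 0.0547). For this list the medians over untreated were -0.13 and -0.10 in hsp-otd and hsp-Otx2, where mey was 0.91 and 0.98, m -0.11 and 0.25 and nyo -0.02 and 0.37.

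Of 24 genes for tracheal and chitin matrix, chitinases and deacetylases 10 fell, 6 in both fits, and 1 rose. The number lowered was 6 without heat-shocked replicate 3. The chitinase gene Cht6 read 1964, 1935, 2084.5, 2053.5 and 2049.5 untreated and 391, 344 and 650.4 after the pulse (-2.18 ± 0.15, adjusted p = 1.84e-08), although 2 further probe sets assigned to Cht6 did not pass. The chitin-binding gene obst-A fell from 6673 to 2625 (-1.35 ± 0.12). Cht5, a chitinase of the moult, was the gene that rose (597 to 1500.2, 1.33 ± 0.21). Tanning enzymes that harden and colour cuticle gave 5 lower of 20 and none higher, and 3 lower without heat-shocked replicate 2. Among them, amd fell from 2465 to 1227 (-1.01 ± 0.14) and yellow-e2 from 342 to 96.9 (-1.82 ± 0.32).

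Osiris genes encode insect-specific membrane proteins of cuticle-secreting cells. Of 19 tested 3 rose (15.8%) and 5 fell (26.3%), beside 9.85% and 13.3% over all genes. Osi7 read 4335, 4370.1, 4361.5, 5286 and 5219 and then 10521, 11239.9 and 8421 (1.09 ± 0.11), whereas Osi18 fell from 3116 to 1065 (-1.55 ± 0.12), Osi19 from 7806 to 4067 (-0.94 ± 0.09) and Osi20 from 7916 to 4985 (-0.67 ± 0.06). In hsp-otd and hsp-Otx2 Osi7 was -0.37 and 1.32 over untreated. Of 31 septate junction genes 3 rose (9.68%) and 5 fell (16.1%), 2 and 2 in both fits, and 3 fell without heat-shocked replicate 3. These shares are near the 9.85% higher and 13.3% lower over all genes. The adhesion gene Fas3 rose from 1526 to 3622 (1.25 ± 0.18), and the smooth septate junction genes Tsp2A (-0.69 ± 0.10) and Ssk (-0.67 ± 0.13), which act in gut epithelia, fell.

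Ecdysone, the moulting hormone, acts in embryos through a cascade of nuclear receptors. Of 31 genes of its synthesis and response 5 rose (16.1%), 4 in both fits, and 4 fell (12.9%), 2 in both. Over all genes 9.85% were higher and 13.3% lower, so the share lowered was near that of all genes. The lowered genes of the list were 2 without untreated replicate 4 or heat-shocked replicate 1. Without normalization none of the list rose and 2 fell. The early response gene Eip75B read 416, 260.4, 304, 421 and 363 untreated and 1007, 834 and 942 after the pulse (1.41 ± 0.15, adjusted p = 4.18e-06). Hr3, a receptor that acts after it, rose from 496 to 1198 (1.27 ± 0.14); a second probe set gave 1.13 ± 0.42 and did not pass. Kr-h1, which also answers to juvenile hormone, rose from 369 to 986 (1.42 ± 0.23). The gene ftz-f1, which follows Hr3 in the cascade, read 367, 429.8, 323, 503.5 and 476 and then 154, 63.4 and 64.4. It fell (-2.27 ± 0.30, adjusted p = 3.00e-05). Over untreated, ftz-f1 was -2.75 and 0.71 in hsp-otd and hsp-Otx2, and Eip75B 1.70 and 1.34. Cyp18a1, the enzyme that inactivates ecdysone, fell from 2840.5 to 1345 (-1.08 ± 0.13).

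For the signalling lists the background is 9.85% higher and 13.3% lower over all genes. Of 36 Hedgehog and Wingless genes 5 were higher and 4 lower, with 3 higher without untreated replicate 5 or without heat-shocked replicate 2. The ligand gene Wnt2 read 379, 376, 234, 288 and 439.8 untreated, then 119.5 and 61.2 with replicate 3 below the floor (-2.67 ± 0.45, adjusted p = 3.84e-04). Wnt5 fell (-2.10 ± 0.47, but adjusted p = 0.066 with 1 variance factor per group) and ci, the Hedgehog transcription factor, from 1530.4 to 748 (-1.03 ± 0.17), while dsh, the relay of Wnt receptors, rose from 696 to 1177 (0.76 ± 0.14). Of 28 Hippo and growth genes 2 were higher and 6 lower, with 3 lower without untreated replicate 4, untreated replicate 5 or heat-shocked replicate 1 and 2 without heat-shocked replicate 2. The Hippo gene ex fell from 219 to 29.7 (-2.88 ± 0.59), with 2 of 3 heat-shocked arrays below the floor. The growth kinase gene Pdk1 read 854, 1146, 934, 1124 and 1399 and then 2635, 2590.3 and 1892 (1.13 ± 0.15). Each of the 5 other probe sets of Pdk1 passed too, between 0.97 and 1.09. The Hox cofactor gene hth rose from 268 to 1433 (2.42 ± 0.17), and vri, a bZIP repressor of the circadian clock that is also an ecdysone target, from 193 to 592 (1.62 ± 0.27).

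In lipid synthesis and storage 6 of 44 were higher and 8 lower, 3 and 3 in both fits, and the lowered were 5 without heat-shocked replicate 3. Elovl7, a fatty acid elongase, read 2571, 2332, 2727, 2355 and 2557 untreated and 554, 783 and 654 after the pulse (-1.93 ± 0.11, adjusted p = 2.10e-09). The lipase gene bmm (855 to 1547, 0.86 ± 0.13) and the droplet coat gene Lsd-2 (1403 to 2631, 0.91 ± 0.12), which act in opposite directions on stored fat, both rose. The peroxisomal oxidase gene Acox3 fell from 2325 to 1379.5 (-0.75 ± 0.12). Gfat1, which makes the amino sugar for chitin and glycans, fell from 4580.4 to 1803 (-1.35 ± 0.14) and Pgi, of glycolysis, rose from 884 to 1661 (0.91 ± 0.10). Prps, which starts nucleotide synthesis, rose from 919 to 1967 (1.10 ± 0.13), while dUTPase fell (-0.54 ± 0.08). Of 76 respiratory chain genes 19 fell and none rose in the fit of all arrays, but the 5 lower in both fits are a share near the 7.12% of all genes. Among them ND-MWFE, of complex I, went from 3707 to 1863 (-0.99 ± 0.12). The proton pump subunit gene Vha100-5 fell from 1414 to 605 (-1.22 ± 0.19).

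Detoxification genes gave 7 of 31 glutathione transferases higher and 2 lower, 4 and 1 in both fits. GstE3 read 703.5, 719, 505, 761 and 761 untreated and 1691, 1380 and 1614.5 after the pulse (1.19 ± 0.12, adjusted p = 1.45e-06). GstE1 (968 to 2233, 1.21 ± 0.16) and GstE6 (1694 to 2965, 0.81 ± 0.12) rose as well, and GstE13 fell from 652 to 367 (-0.83 ± 0.18). Of 67 cytochrome P450 genes 7 were higher (10.4%), near the share over all genes, and 5 lower (7.46%), below it. In both fits 3 were higher and 3 lower, and 4 were higher in the fit of all arrays without untreated replicate 1. Of 27 UDP-glycosyltransferase genes 1 was higher (3.70%) and 3 lower (11.1%), both shares below those of all genes. Among the lower, Ugt37B1 fell from a level of 155 to 23.8 in replicate 3 and below the floor in the other 2. The sugar-cleaving maltase gene Mal-A4 was at 119, 118, 198, 155 and 44.7 untreated and below the floor after the pulse, at least 5.70-fold lower.

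The background shares for neuronal and cytoskeletal lists are the 9.85% and 13.3% of all genes. Of 52 ion channel genes 6 were higher, 2 without heat-shocked replicate 3, and 3 were lower. The lower were 1 without untreated replicate 4 or 5 and none without heat-shocked replicate 3. The sodium channel gene para, needed for action potentials, read 563, 608, 604, 597 and 569.7 and then 831, 898 and 835 (0.54 ± 0.09, adjusted p = 3.41e-04). In the synaptic list 3 of 35 were higher and 1 lower, the GABA-synthesis gene Gad1 reading 91.2, 91.0, 210.2, 89.1 and 82.8 untreated and lying below the floor after the pulse. AkhR, the receptor for the hormone that mobilises fat and sugar, was below the floor in all untreated arrays and at 167, 298 and 262 after the pulse, at least 11.8-fold higher. Among 53 axon guidance and adhesion genes 9 rose, 5 in both fits, and 3 fell, Toll-6 among the latter (1020.1 to 458, -1.15 ± 0.21). The muscle adhesion gene rst rose from 195 to 749 (1.94 ± 0.35). In the actin list of 47 genes 9 rose and 6 fell, the latter 2 without heat-shocked replicate 3. SCAR, which activates Arp2/3, rose from 720.3 to 1159 (0.69 ± 0.13), as did kst, a heavy spectrin (0.56 ± 0.08), and tau, which binds microtubules, rose from 2238 to 3679 (0.72 ± 0.14), although its second, dimmer probe set did not pass.

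**Figure D4:**
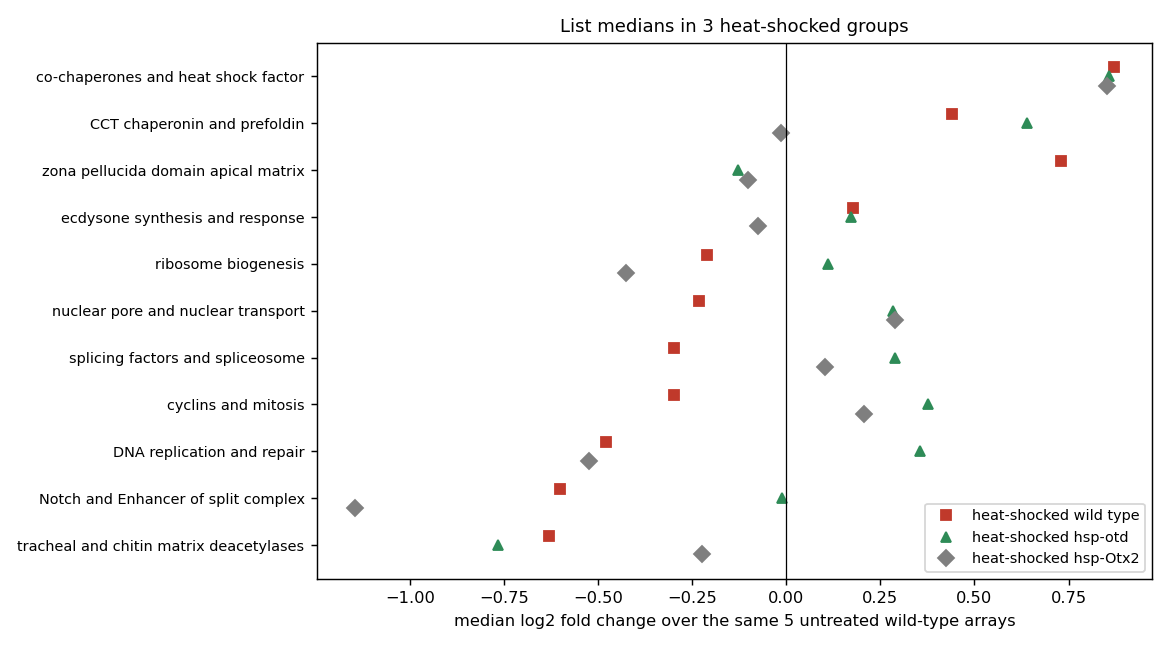
Median log2 fold change over the same 5 untreated wild-type arrays, for 11 gene lists, in heat-shocked wild type (squares), hsp-otd (triangles) and hsp-Otx2 (diamonds). The 3 co-chaperone medians lie at 0.87, 0.86 and 0.85, while those of the zona pellucida list are 0.73, -0.13 and -0.10 and those of the Notch list -0.60, -0.01 and -1.15.

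Calls in each direction also varied with the length of the annotated locus (RefSeq genes of the assembly Release 6 plus ISO1 MT, introns included). Of 1298 genes with loci up to 1000 bases, 7.16% were higher and 20.9% lower, and of 1109 genes over 16000 bases 17.1% were higher and 4.87% lower. Over the 6 length classes the median log2 fold change was -0.12, -0.11, -0.03, 0.04, 0.11 and 0.21. Without normalization it was -0.49, -0.50, -0.44, -0.36, -0.31 and -0.20, lowest in the 2 shortest classes. Median length was 3726 bases for the 475 genes higher in both fits, 1787 for the 721 lower and 2544 for all genes tested. Among genes with a mean log2 intensity above 10 the medians of the shortest and longest classes were -0.29 and 0.26. At a mean log2 intensity below 8 they were 0.07 and 0.12. In hsp-otd the medians over untreated were -0.21, -0.08, 0.03, 0.10, 0.08 and -0.01, highest in the 4000 to 8000 class, and in hsp-Otx2 -0.30, -0.23, -0.14, -0.02, 0.04 and -0.05. These are descriptions across genes, which are not independent, with no test.

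**Figure D5:**
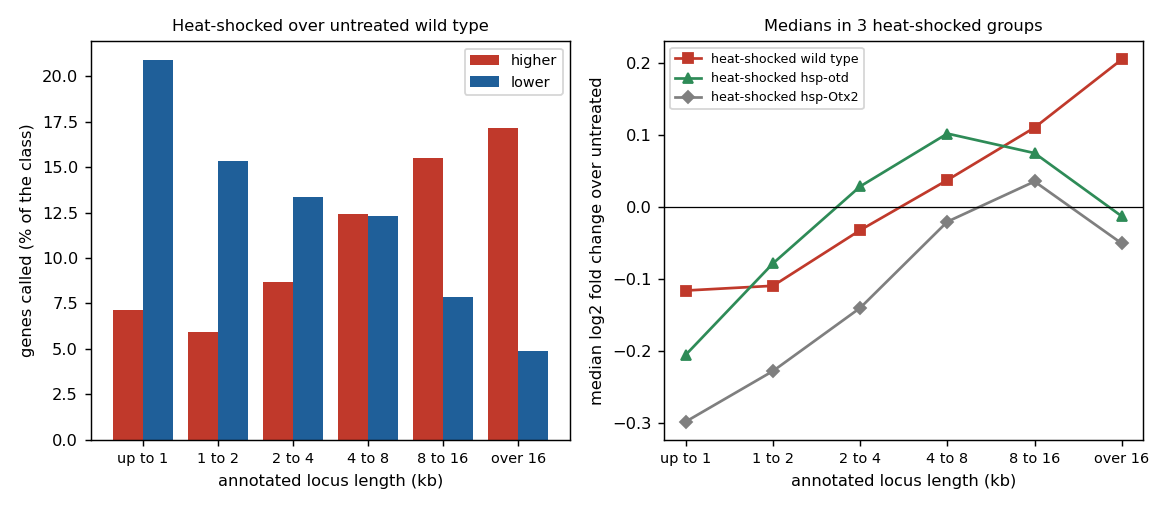
Genes called higher and lower in heat-shocked over untreated wild type (left, percent of the class) and the median log2 fold change over untreated in 3 heat-shocked groups (right), by length of the annotated locus in 6 classes. In wild type the share lower falls from 20.9% to 4.87% and the median goes from -0.12 to 0.21 between the shortest and longest classes.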

How the data were processed

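Whole-embryo RNA was hybridised to single-colour arrays, 1 array per sample. The authors deposited 1 intensity per probe set and array on a linear scale; 18.3% to 24.6% of an array's values are below 0, and no label or header used here states the scaling. Quantile normalization over the 16 arrays was followed by a floor of 20 and log2. A probe set entered the test when 3 or more of its values exceeded that floor. Tests used limma 3.58.1 (R 4.3.3), 1 mean per group, with a mean-variance trend and Benjamini-Hochberg adjustment. A gene stands for its probe set of highest mean; 13081 probe sets matched 1 symbol, 467 several and 490 none. Within each list, up to 4 genes of largest change that passed in both fits were named, with the 12 highest and 12 lowest over all. Hsp68 was named as a reference point, Mhc and other tissue genes as markers, and genes that define a list whatever their values. Sgt1, mora, pall, Hsp83, Hsf and PCNA were chosen after their values were seen. Members and lists were chosen with earlier results of these data known. The alternatives were other scalings, floors, filters and variance models, and leaving out each array. The fit was also run on simulated log2 values with the same spread in every group and no normalization step. That run does not cover the unequal spread of the groups or the choice of normalization. The number of arrays limits the precision. No sequences were used here.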

Additional observations from a re-analysis of the deposited data

Results flagged for a closer look

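In 16 of the 141 named genes examined, 1 of the 5 untreated arrays stood apart from the other 4 by Dixon's test. Chance alone flags about 1 of 20 groups. Values here are normalized intensities of the array that stood apart and of its nearest neighbour. The lowest array stood apart for Prx6b (5316.9 against 7771.3), obst-E (296.8 against 500.2), Slbp (151.2 against 322.1), TfIIEalpha (113.6 against 257.3), Nup107 (333.4 against 543.4) and E(spl)mdelta-HLH (111.7 against 269.1). It also did for kst (1226.4 against 1488.4), Vha100-5 (1208 against 1423.6), dUTPase (1003.5 against 1173.1), hth (167.6 against 273.9), GstE1 (614.3 against 977.9) and GstE3 (504.9 against 703.5). The highest array stood apart for PGRP-SC1b (223.1 against 20), bbg (57.4 against 20), Wnt5 (576.9 against 518.8) and Gad1 (210.2 against 91.2). For PGRP-SC1b and bbg the neighbour is the floor. Every call of these genes held without any 1 untreated array.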

How the results depend on the processing

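Probe sets higher, 1269 in the analysis reported, were 189 without normalization, 624 with the compared groups only and 705 with 1 variance factor per group. Probe sets lower, 1501, were 819 with the compared groups only and 895 with 1 variance factor per group. The compared arrays spread more than the transgenic ones, and both of these settings remove or weight that pooled spread. Leaving out each array in turn gave 1032 to 1377 higher and 1265 to 1568 lower. Restricting the controls to untreated replicates 1 to 3, chosen after seeing the data because the other 2 were brighter, gave 1118 and 1095. The other settings (floors, filters, no trend, median scaling) stayed within 1.5 times of both counts. The replicate numbers did not pair the samples (correlations of deviations -0.05, -0.07 and 0.12), and the replicate block gave 1054 higher and 1112 lower.

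Of the 137 named genes that passed, 36 lost the call without normalization and 1, maf-S, turned from 0.46 to -0.049; the cause was not tested. With 1 variance factor per group exp, hay, zye and Wnt5 lost it, with the compared groups only kay did, without heat-shocked replicate 2 hay did and without heat-shocked replicate 3 kay did. No other setting changed a call of a named gene. Signal near the floor limits the precision of dim genes, and 1737 probe sets were not tested.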

Other observations

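Gene groups outside those described above are given here by their counts, beside 9.85% higher and 13.3% lower over all genes and 4.69% and 7.12% in both fits, and no list was tested as a set. Of 24 circadian genes 4 were higher and 1 lower, 2 and none in both fits, with a median log2 fold change of 0.42. Of 31 sarcomere genes 6 were higher and 3 lower, 3 and 1 in both fits, with 1 lower without untreated replicate 5 or without heat-shocked replicate 2 or 3. In the list of secretory coats and the translocon 8 of 36 genes were lower, 3 in both fits, and none higher. Of 30 aminoacyl-tRNA synthetase genes 7 were lower, 2 in both fits, and 1 higher. Both of these lists had 4 lower without heat-shocked replicate 2. Of 36 translation initiation factor genes 4 were higher and 4 lower, none and 1 in both fits.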
